A study of Mus musculus with 12 samples.

Results

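The 38 genes described here carry out DNA replication and cell division: 10 act in DNA replication and nucleotide supply, and 28 are cyclins, their kinase and proteins of the spindle, kinetochore, mitotic exit, cytokinesis and chromosomes. They were chosen by gene symbol, with 1 row per Ensembl gene, from the 40594 genes of the count table, and all 38 were found. RNA was sequenced from the ventricles of adult mouse hearts in 4 groups of 3 libraries: right ventricle (RV) with Wnt pathway loss of function (Wnt LOF), left ventricle (LV) with Wnt LOF, control RV and control LV. Not given in the sources used here are the gene, allele and driver behind the loss of function, the strain and any treatment. Nothing in the labels says that the libraries within a group stem from different animals. Every p-value measures only how far these libraries spread, which may be partly technical. The series title sets the question as how the ventricles differ in Wnt-dependent gene programmes and arrhythmia.

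A dividing cell first licenses its replication origins with the MCM helicase, which Cdc6 loads in G1, and then copies its DNA with the sliding clamp Pcna while Rrm2 and Tyms supply nucleotides. Cyclins then drive cyclin-dependent kinases into mitosis, where Aurora and Polo kinases build the spindle, a checkpoint watches the kinetochores, and the anaphase-promoting complex destroys cyclins so that the cell can exit and split. Most adult heart muscle cells have left this cycle, so in bulk ventricle RNA many of these transcripts are low. In bulk RNA, fewer cells of a type and less RNA per cell cannot be told apart.

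These genes are commonly driven through 3 promoter elements: E2F sites, typical of replication genes, and the CCAAT box and the cell cycle genes homology region (CHR), typical of mitotic genes. RefSeq promoter windows of build GRCm38.p6, from 250 bases before to 50 after the start, matched 32 of the 38 genes, the others being Aurkb, Ccna2, Tpx2, Ccne2, Kif20a and Mcm4. An E2F site (TTTCCCGC, TTTCGCGC, TTTGCCGC or TTTGGCGC on either strand) lay in 5 of 9 replication promoters (Mcm3, Mcm5, Mcm6, Mcm7 and Cdc6) and in 1 of the 23 others (Cdk1), against 2.32% of 27025 promoters of the same length. A CHR (TTTGAA or TTTAAA on either strand) lay in 21 of the 23 others and in 3 of 9 replication promoters, against 27.8% of all promoters. CCAAT on either strand lay in 20 of the 23 others and 7 of 9 replication promoters, against 37.9% of all. These matches describe letters in a window and are not shown to be used sites. The windows of 3 mitotic genes whose levels differed in one of the fits below, and of 1 helicase gene, are printed 5′ to 3′ on the gene's strand. Capitals mark the matches to the 3 elements on either strand, and matches can overlap.
Mki67, chr7:135716330-135716629, minus strand: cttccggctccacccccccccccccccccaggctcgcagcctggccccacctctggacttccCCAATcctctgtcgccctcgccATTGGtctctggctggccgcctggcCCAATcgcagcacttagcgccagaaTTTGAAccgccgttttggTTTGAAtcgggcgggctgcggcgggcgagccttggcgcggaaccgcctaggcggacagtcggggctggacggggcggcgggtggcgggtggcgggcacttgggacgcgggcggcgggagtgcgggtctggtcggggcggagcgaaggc
Top2a, chr11:99024140-99024439, minus strand: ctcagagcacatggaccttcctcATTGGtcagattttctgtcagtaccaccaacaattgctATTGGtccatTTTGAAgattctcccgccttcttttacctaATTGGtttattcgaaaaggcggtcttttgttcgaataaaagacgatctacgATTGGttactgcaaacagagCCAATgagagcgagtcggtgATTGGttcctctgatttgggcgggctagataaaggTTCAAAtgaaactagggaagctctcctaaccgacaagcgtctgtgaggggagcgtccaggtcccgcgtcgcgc
Cenpf, chr1:189688037-189688336, minus strand: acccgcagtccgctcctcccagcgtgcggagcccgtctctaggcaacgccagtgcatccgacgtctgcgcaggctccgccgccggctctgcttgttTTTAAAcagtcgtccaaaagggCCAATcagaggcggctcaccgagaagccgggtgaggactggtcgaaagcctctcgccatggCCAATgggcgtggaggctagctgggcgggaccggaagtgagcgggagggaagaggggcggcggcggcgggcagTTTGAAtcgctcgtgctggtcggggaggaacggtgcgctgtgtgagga
Mcm6, chr1:128359656-128359955, minus strand: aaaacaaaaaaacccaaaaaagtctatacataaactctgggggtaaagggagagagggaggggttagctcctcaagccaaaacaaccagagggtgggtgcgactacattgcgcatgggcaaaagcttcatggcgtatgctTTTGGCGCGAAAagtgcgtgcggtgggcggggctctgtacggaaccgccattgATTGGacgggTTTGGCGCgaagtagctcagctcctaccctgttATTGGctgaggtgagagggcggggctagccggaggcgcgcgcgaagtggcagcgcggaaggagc
The Mki67, Top2a and Cenpf windows held CCAAT boxes and CHR letters and no E2F site, while the Mcm6 window held E2F sites and CCAAT boxes and no CHR.

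The libraries held 13274922 to 19173391 counts, of which the 38 genes took 2461 to 4201 reads. Levels are given as counts per 1000000 counts of a library (CPM), scaled by edgeR's trimmed mean of M values (TMM), and 36 genes passed the filter on low counts; Bub1 and Ccnb1 did not. Ctnnb1, which encodes beta-catenin, had 425, 454 and 352 CPM in Wnt LOF RV and 395, 532 and 409 CPM in Wnt LOF LV, against 560, 523 and 511 CPM in control RV and 598, 426 and 509 CPM in control LV, so the genotypes did not overlap in the RV and overlapped in the LV. Some libraries went against their labels. Wif1, which differed between control RV (12 to 18.4 CPM) and control LV (2.62 to 3.18 CPM), had 13.5 CPM in the library labelled Wnt LOF LV 1 and 2.55 CPM in the library labelled Wnt LOF RV 1. Of all pairs of libraries, Wnt LOF RV 1 and control LV 2 were the closest, with a mean chi-square per gene of 2.85 against 9.32 for the next pair. The Y-linked gene Ddx3y was above 1 CPM in the 4 libraries numbered 3 and in no other library. Each labelled group thus held libraries of different sex, so its libraries do not all stem from 1 animal. Whether those numbered 1 and 2 stem from different animals is not given. Heart muscle transcripts were abundant throughout (Myh6 at 33700 to 39600 CPM), and atrial muscle markers summed to 22.8 CPM in Wnt LOF RV 3, against 1.51 to 3.91 CPM in the other libraries.

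The Mcm genes and Pcna were steady across libraries and most mitotic genes were not, and 1 mitotic gene, Cenpf, stood far above the others. Per kilobase of annotated exon, Cenpf had the highest mean level of the 38 genes, at 4.49 CPM per kilobase, followed by Pcna at 4.19 and Mcm6 at 2.78, while Mki67 had 1.25 and Top2a 0.815. Cenpf encodes a large microtubule-binding kinetochore protein, known in mouse also as LEK1. The 6 helicase genes Mcm2 to Mcm7 differed between their highest and lowest library by 1.42-fold (Mcm4) to 1.89-fold (Mcm5). Among the mitotic genes the same ratio reached 9.99-fold for Cdk1, the kinase of mitotic entry, 13.0-fold for Hmmr, a spindle assembly factor, and 20.4-fold for Plk1, the Polo kinase. Cdk1 averaged 1.19 CPM, Hmmr 0.732 CPM and Plk1 0.506 CPM, and these ratios rest on few reads. Their lowest library was Wnt LOF LV 1, at 0.237, 0.119 and 0.0593 CPM, where 1 read is 0.0593 CPM. Their SDs on the log2 scale were 1.02, 1.04 and 1.14, where counting error alone would give 0.42, 0.54 and 0.7. Top2a, the topoisomerase that untangles chromosomes, had an SD of 0.75 on the log2 scale over the 12 libraries, where counting error alone would give 0.15, while Mcm4 had 0.15 against 0.12.

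The swings of the mitotic genes were shared within libraries. Of the 36 genes that passed the filter, 19 had their lowest level in Wnt LOF LV 1 and 15 their highest in Wnt LOF LV 2, so the extremes of the whole series lay in replicates of the same group. The 25 genes outside replication and apart from Cenpf summed to 34.9 CPM in Wnt LOF LV 1, 102 CPM in Wnt LOF LV 2 and 79.7 CPM in Wnt LOF LV 3. The 10 replication genes summed to 60.6, 76.8 and 78.5 CPM in the same libraries. The 5 endothelial markers, counted because these vessel cells are numerous in heart, summed to 620, 795 and 738 CPM there. In Wnt LOF RV these markers summed to 796, 638 and 706 CPM and the 25 genes to 49.5, 56.5 and 76.2 CPM. In control LV the sums were 850, 791 and 832 CPM, and 78.3, 43.8 and 83 CPM. In control RV the sums were 729, 675 and 703 CPM, and 50.8, 39 and 61.2 CPM. The part of endothelial RNA in the sums of the 25 genes was not tested. The 2 genes below the filter were at or near the detection limit. Ccnb1, a mitotic cyclin, had 0 reads in Wnt LOF LV 1, control RV 1 and control RV 2, where 3 reads would be 0.178, 0.167 and 0.199 CPM, and had 2, 2 and 3 reads in Wnt LOF RV, 9 and 5 reads in Wnt LOF LV 2 and 3, 1 read in control RV 3, and 5, 2 and 4 reads in control LV. Bub1, a checkpoint kinase, had 2 to 14 reads.

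**Figure D1:**
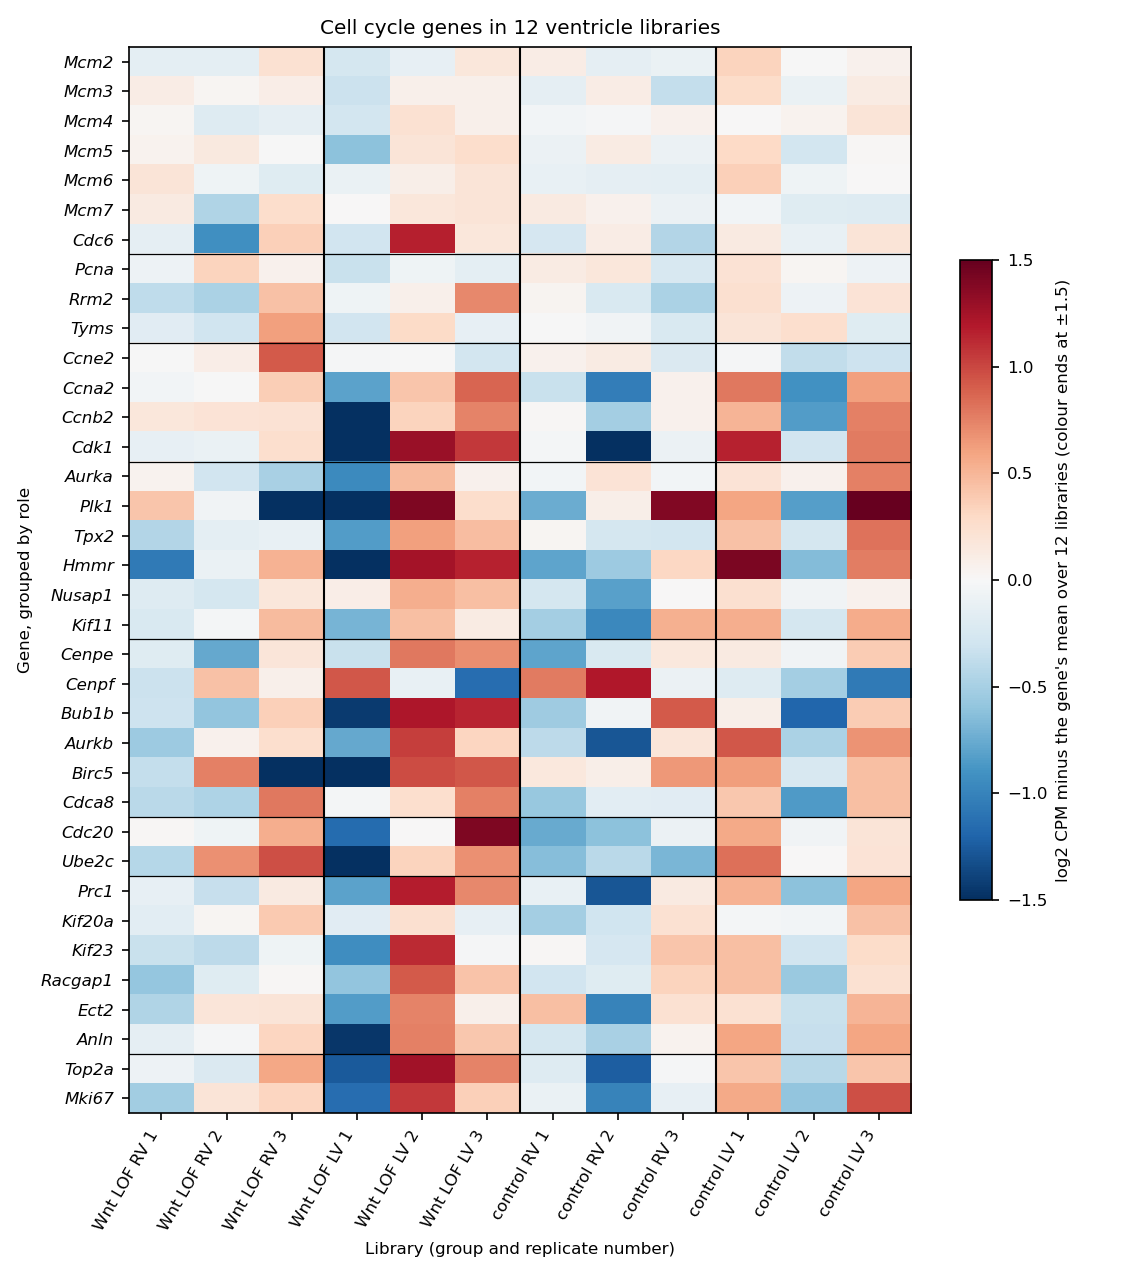
Colour shows, for each of the 36 genes that passed the filter (rows, grouped by role), the log2 CPM in each library (columns) minus the gene's mean over the 12 libraries. The Mcm rows are pale throughout, most mitotic rows are blue in Wnt LOF LV 1 and red in Wnt LOF LV 2, and the Cenpf row is red in Wnt LOF LV 1 and in control RV 1 and 2.

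Cenpf ran apart from the other mitotic genes. It had 49.4, 83.8 and 64.8 CPM in Wnt LOF RV and 117, 57.1 and 27.8 CPM in Wnt LOF LV, against 106, 141 and 58.1 CPM in control RV and 53.7, 43.1 and 29.5 CPM in control LV. Its highest 3 libraries were control RV 2, Wnt LOF LV 1 and control RV 1, and the 25 other genes outside replication were at 39, 34.9 and 50.8 CPM in sum there. The sum of a marker list for cilia moved with Cenpf. Foxj1, its defining factor, was at 0 to 0.167 CPM in every library. The 5 genes together had 8, 30 and 15.9 CPM in Wnt LOF RV and 21.6, 8.95 and 3.59 CPM in Wnt LOF LV, against 28.2, 29.1 and 15.3 CPM in control RV and 8.18, 7.28 and 6.81 CPM in control LV. Ubxn10, Cfap61 and Rp1 made up most of this sum. Dnah1 of the list did not follow, at 0.614, 0.662 and 0.457 CPM in control RV, against 0.669, 0.633 and 0.983 CPM in control LV. The pattern was not particular to this list. Wif1, which is not on it, had 2.55, 14.2 and 13.2 CPM in Wnt LOF RV, against 13.5, 1.65 and 1.63 CPM in Wnt LOF LV. The part of ciliated cells in the Cenpf level was not tested.

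**Figure D2:**
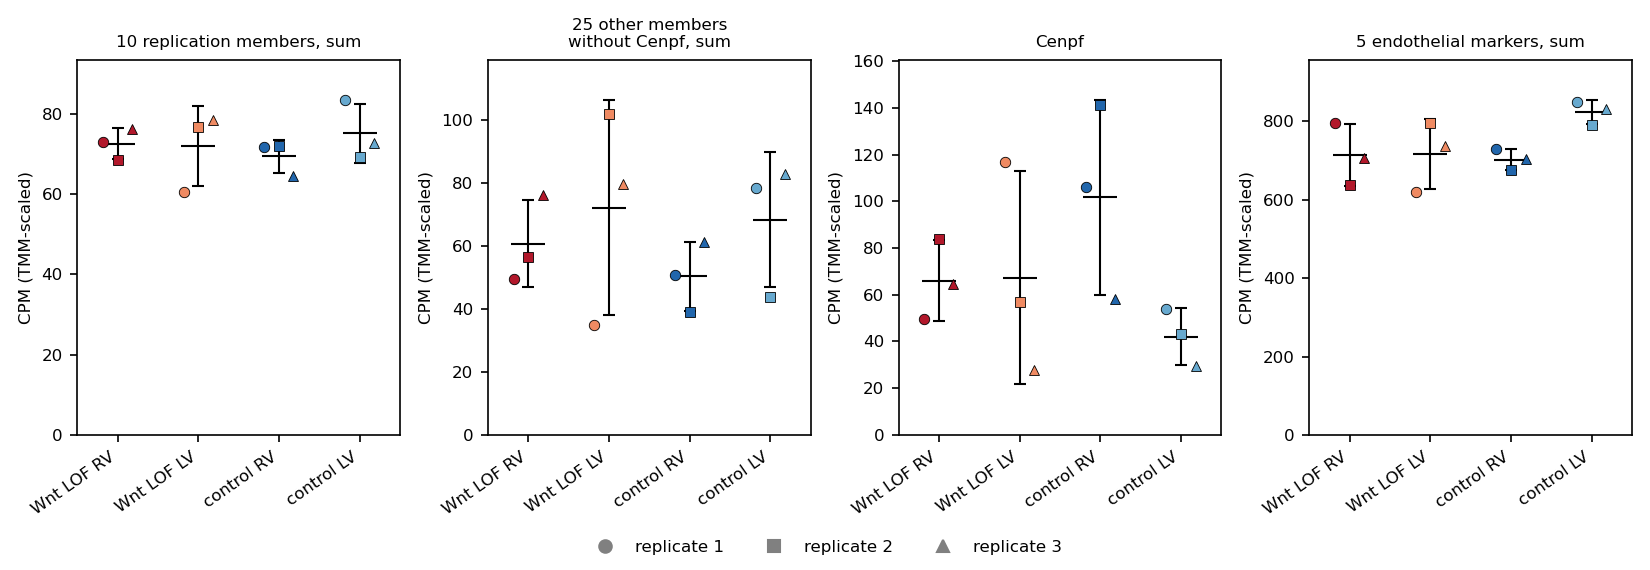
Each panel shows TMM-scaled CPM per library (symbols are replicates 1 to 3, bars the mean ± SD, n = 3) for the sum of 10 replication genes, the sum of the 25 other genes without Cenpf, Cenpf alone and the sum of 5 endothelial markers. The replication sum stays between 60.6 and 83.4 CPM, while the sum of the 25 genes runs from 34.9 to 102 CPM, both ends within Wnt LOF LV.

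The comparison of control RV with control LV asks whether the ventricles of control hearts differ. Most genes of the list were lower in control RV: 31 of 36 had a log2 fold change below 0, against 49% of the 15494 genes tested, with a median of -0.30 against 0.004 for all genes. No gene of the list was called at an adjusted p of 0.05 by edgeR's quasi-likelihood test or by DESeq2, and 0% of all genes were. At an unadjusted p under 0.05 there was 1 gene of the 36, Cenpf, against 4.89% of all genes. Cenpf was higher in control RV, at 102 ± 41.5 CPM, against 42.1 ± 12.1 CPM in control LV (SD, n = 3 each), with ranges that did not overlap. Its log2 fold change was 1.27 (SE 0.52, unadjusted p = 0.039, adjusted p = 0.922 by edgeR).

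Among the replication genes, 9 of 10 lay below 0, with small differences. Mcm6, a helicase subunit, had 11.9, 11.7 and 11.6 CPM in control RV, against 16.5, 12.3 and 12.9 CPM in control LV. The control ranges did not overlap, and the log2 fold change was -0.24 (SE 0.14), or -0.10 without control LV 1. In the Wnt LOF libraries Mcm6 had 14.7, 12.3 and 11.4 CPM in the RV, against 12, 13.7 and 14.7 CPM in the LV, with overlap. Mcm7, another subunit, was the exception with 0.18 (SE 0.17).

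Among the mitotic genes other than Cenpf, control RV was lower for all 6 spindle genes and all 6 cytokinesis genes, both by sign alone. The 6 tested kinetochore and checkpoint genes, Cenpf included, were split, 3 above 0 and 3 below. Of the 4 tested cyclin and kinase genes 3 lay below 0, and Ccne2 lay above. Mki67, which encodes the proliferation marker Ki-67, a coat of mitotic chromosomes, had 10.5, 5.63 and 10.4 CPM in control RV, against 16.8, 7.49 and 22.0 CPM in control LV. The control groups overlapped through control LV 2, and the log2 fold change was -0.79 (SE 0.55); it was -0.45 when control LV 3 was left out and -1.13 when control LV 2 was. Top2a had 5.69, 2.78 and 6.46 CPM in control RV, against 8.70, 4.90 and 8.70 CPM in control LV, again with overlap, and a log2 fold change of -0.57 (SE 0.55), which became -0.29 once control RV 2 was dropped and -0.80 once control LV 2 was. Cdk1 had -1.09 (SE 0.65), or -0.72 without control RV 2. Hmmr had -1 (SE 0.72), or -0.43 without control LV 1.

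The mitotic exit genes did not overlap between the control groups. Ube2c, the ubiquitin-conjugating enzyme of the anaphase-promoting complex, had 0.335, 0.397 and 0.326 CPM in control RV, against 0.926, 0.527 and 0.605 CPM in control LV, a log2 fold change of -0.96 (SE 0.53). Ube2c averaged 0.587 CPM, so its values rest on few reads. Counting error alone would give it an SD of 0.53 on the log2 scale, and its SD over the libraries was 0.71. Cdc20, the activator of the same complex, had 0.781, 0.861 and 1.24 CPM in control RV, against 1.96, 1.27 and 1.51 CPM in control LV, a log2 fold change of -0.72 (SE 0.51). With Mcm6 these were 3 of 36 genes with all control RV libraries below all control LV libraries, against 5.92% of all genes, and Cenpf was the 1 gene with all above, against 6.68%. In the annotation, 22.8% of the exon bases of Ube2c overlap Tnnc2 on the other strand, and the shares are 29.3% for Kif20a (Cdc23), 12.5% for Ccna2 (Exosc9), 11.1% for Prc1 (Rccd1) and 7.25% for Mcm7 (Ap4m1). No source used here gives the strand setting of the counting, and their reads cannot be told apart.

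**Figure D3:**
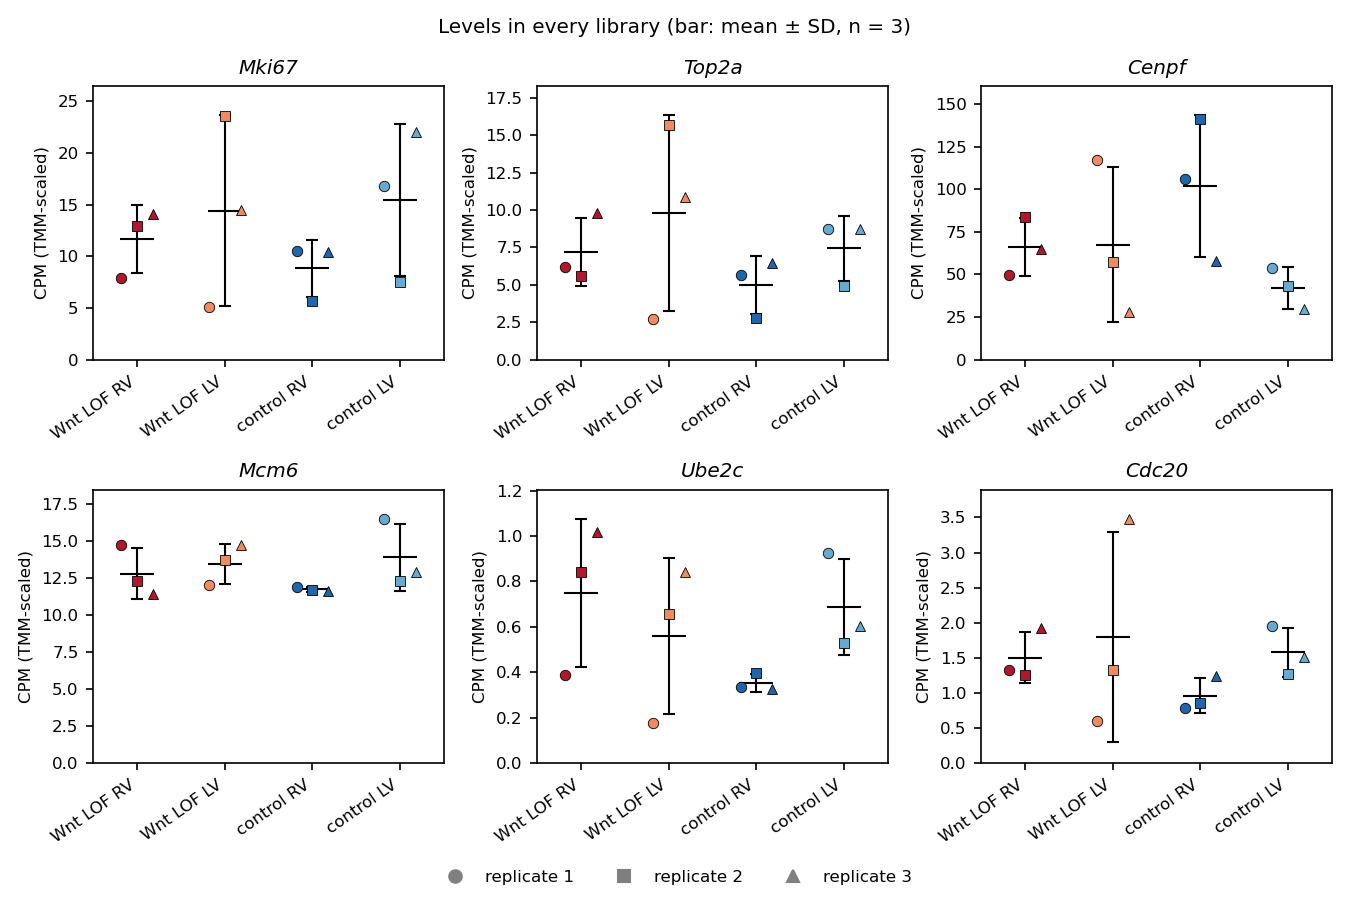
Each panel shows TMM-scaled CPM in every library for 1 gene (symbols are replicates 1 to 3, bars the mean ± SD, n = 3). Cenpf, Mcm6, Ube2c and Cdc20 do not overlap between control RV and control LV, and Mki67 and Top2a do.

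Libraries of equal number deviated together in RV and LV, so the comparison was also made within numbers. In control hearts 18 of 36 genes were lower in the RV at all 3 numbers, against 18.1% of all genes, among them Mki67, Top2a, Cdk1, Ccna2, Aurkb, Prc1, Anln, Mcm2, Mcm4 and Mcm6. Cenpf, Mcm7 and Ccne2 were higher in the RV at all 3 numbers, 3 of 36 against 17.4%. With the number as a block and the control libraries alone, edgeR called 3 genes of the list, against 2.19% of all genes: Mki67 at -0.75 (SE 0.13, adjusted p = 0.00665), Top2a at -0.60 (SE 0.15, adjusted p = 0.0478) and Cenpf at 1.23 (SE 0.17, adjusted p = 0.0406). Mki67 and Top2a thus fell and Cenpf rose in control RV relative to control LV in that fit, while the block over all 12 libraries called 0 of the 36. Fits with 1 number left out held 4 control libraries and 1 residual degree of freedom each, so their calls lean on the spread shared across genes and are a weak check. Without control number 1 Cenpf was at 1.37, Mki67 at -0.80 and Top2a at -0.60, with Cenpf and Mki67 called, against 4.68% of all genes. Without number 2, which holds control LV 2, whose origin is in doubt, Cenpf was at 0.98, Mki67 at -0.87 and Top2a at -0.53, with Cenpf and Mki67 called, against 0.447%. Without number 3 Cenpf was at 1.34, Mki67 at -0.56 and Top2a at -0.70, with Cenpf called, against 1.27%.

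Other cell markers moved with the control comparison. The endothelial markers summed to 675 to 729 CPM in control RV, against 791 to 850 CPM in control LV, and 5 lymphocyte markers to 1.90 to 2.48 CPM in control RV, against 3.1 to 3.5 CPM in control LV. The lymphocyte sums rest on few reads, and Cd3e and Ms4a1 of that list did not pass the filter. The 5 erythroid markers were higher in the RV, at 64.3 to 91.5 CPM in control RV, against 45 to 62.3 CPM in control LV, and for these 3 lists the control groups did not overlap. Hba-a2 of the erythroid list was at 14.4 CPM in control RV 3 and 12 CPM in control LV 3, against 0.0558 to 0.158 CPM in the other control libraries. Fibroblast markers (744 to 1010 CPM in control RV, against 811 to 954 CPM in control LV) and macrophage markers (173 to 222 CPM in control RV, against 155 to 192 CPM in control LV) overlapped. The part of these cells in the mitotic levels was not tested.

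**Figure D4:**
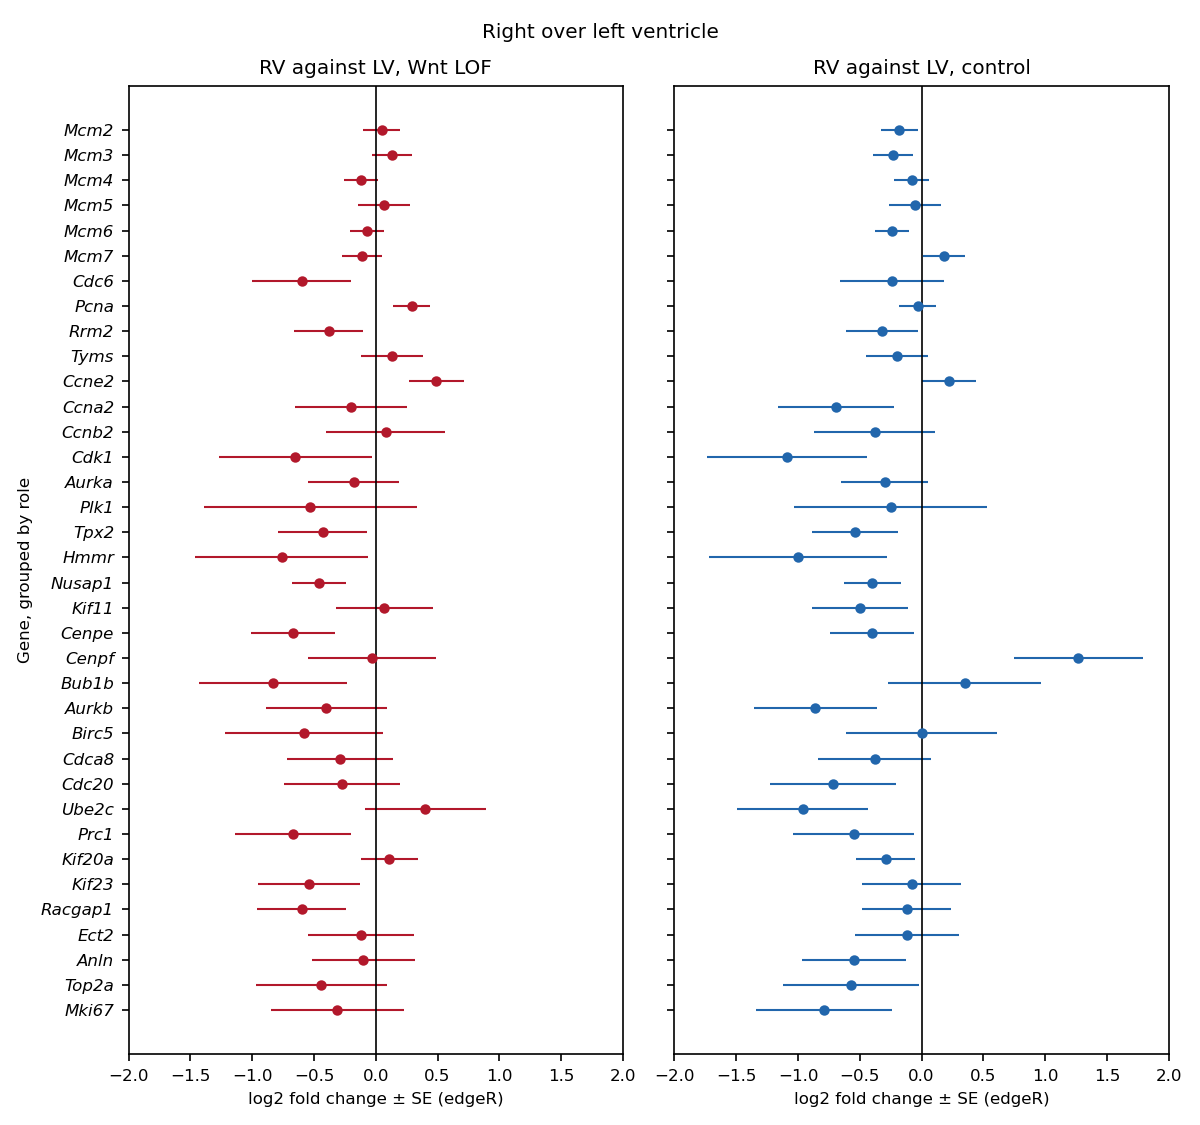
Points are log2 fold changes of RV over LV with their SE by edgeR for the 36 genes that passed the filter, in Wnt LOF hearts (left panel) and control hearts (right panel). In control hearts 31 points lie below 0 and Cenpf lies highest at 1.27; in Wnt LOF hearts 26 lie below 0 and Ccne2 lies highest at 0.49.

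In Wnt LOF hearts the RV was also set against the LV. Here 26 of 36 genes lay below 0, against 50.2% of all genes, with a median of -0.24, against -0.001 for all genes. No gene of the list and 0% of all genes were called by edgeR. DESeq2 also called 0% of the 7976 genes to which it gave an adjusted p, but these held only 3 of the 36 (Mcm6, Cenpf and Mki67), so it says nothing of the other 33. By edgeR 1 of the 36 had an unadjusted p under 0.05, against 4.81% of all genes. No gene of the list had ranges that did not overlap, against 3.36% of all genes higher and 3.70% lower. Within numbers, 2 of 36 genes (Rrm2 and Nusap1) were lower in the RV at all 3, against 12.5% of all genes, and 3 (Pcna, Ccne2 and Ube2c) were higher at all 3, against 14.6%, while 22 were lower at 2 of the 3. All 6 tested kinetochore and checkpoint genes were below 0, Bub1b, the checkpoint kinase BubR1, lowest at -0.83 (SE 0.60). Cenpf was at -0.03 (SE 0.52), Mki67 at -0.31 (SE 0.54) and Top2a at -0.44 (SE 0.53).

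The smallest unadjusted p belonged to Ccne2, a cyclin E of the start of S phase. It had 7.28, 7.88 and 13.9 CPM in Wnt LOF RV and 7.23, 7.31 and 6.06 CPM in Wnt LOF LV, against 7.64, 7.95 and 6.33 CPM in control RV and 7.26, 5.69 and 5.90 CPM in control LV. Its RV over LV log2 fold change was 0.49 (SE 0.22, unadjusted p = 0.0412, adjusted p = 1 by edgeR) in Wnt LOF hearts and 0.14 without Wnt LOF RV 3, the library that also carried the atrial markers, whose part was not tested. Of the exon bases of Ccne2, 17.4% overlap Ints8 on the other strand. The Wnt LOF values turned on single libraries: the median was -0.53 without Wnt LOF LV 1 and 0.00 without Wnt LOF LV 2. Without both Wnt LOF libraries numbered 1 and control LV 2, the median was -0.45 and Cenpf was at 0.81 (SE 0.54) in Wnt LOF hearts, and -0.43 with Cenpf at 1.28 (SE 0.50) in control hearts.

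Wnt LOF was set against control in each ventricle to ask what the loss of function changed. In the RV, 25 of 36 genes lay above 0, against 50.3% of all genes, with a median of 0.15, against 0.001 for all genes. None of the 36 was called by edgeR or DESeq2, and 0% of all genes were, with 0 of the 36 and 2.7% of all genes at an unadjusted p under 0.05. All 4 tested cyclin and kinase genes (0.31 to 0.48), both mitotic exit genes and both chromosome genes lay above 0, and the kinetochore genes were split, 3 above and 3 below. Ube2c, whose values rest on few reads, had the smallest unadjusted p. It had 0.389, 0.843 and 1.02 CPM in Wnt LOF RV, against 0.335, 0.397 and 0.326 CPM in control RV, which overlap through Wnt LOF RV 1. In the LV it had 0.178, 0.658 and 0.841 CPM in Wnt LOF, against 0.926, 0.527 and 0.605 CPM in control, with overlap. Its log2 fold change was 1.06 (SE 0.53, unadjusted p = 0.065, adjusted p = 1 by edgeR).

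Ranges did not overlap for 2 of 36 genes in the RV, both higher in Wnt LOF, against 3.61% of all genes; 0 were lower, against 3.94%. Cdc20 had 1.33, 1.26 and 1.92 CPM in Wnt LOF RV, against 0.781, 0.861 and 1.24 CPM in control RV, a log2 fold change of 0.65 (SE 0.51). Ccnb2, a mitotic cyclin, had 1.06, 1.08 and 1.09 CPM in Wnt LOF RV, against 0.948, 0.662 and 0.979 CPM in control RV, a log2 fold change of 0.31 (SE 0.49). In the LV, Cdc20 had 0.593, 1.32 and 3.48 CPM in Wnt LOF, against 1.96, 1.27 and 1.51 CPM in control, and Ccnb2 had 0.296, 1.18 and 1.57 CPM in Wnt LOF, against 1.34, 0.527 and 1.59 CPM in control. The LV groups overlapped for both genes, and Wnt LOF LV 1 was the lowest of all libraries.

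In the LV, 21 of 36 genes lay below 0, against 50.9% of all genes, and the median was -0.03. None of the 36 was called by edgeR or DESeq2, and 0% of all genes were, with 0 of the 36 and 2.85% of all genes at an unadjusted p under 0.05. Mki67 had 5.10, 23.6 and 14.5 CPM in Wnt LOF LV, against 16.8, 7.49 and 22.0 CPM in control LV, and Top2a had 2.73, 15.7 and 10.9 CPM in Wnt LOF LV, against 8.70, 4.90 and 8.70 CPM in control LV. Wnt LOF LV thus held both the lowest and the highest library for each gene. In the RV, Mki67 had 7.89, 12.9 and 14.1 CPM in Wnt LOF, against 10.5, 5.63 and 10.4 CPM in control, and Top2a had 6.22, 5.60 and 9.78 CPM in Wnt LOF, against 5.69, 2.78 and 6.46 CPM in control.

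The smallest unadjusted p in the LV belonged to Pcna, the sliding clamp, at 0.138. Pcna had 9.50, 12.6 and 10.4 CPM in Wnt LOF RV and 7.95, 9.55 and 9.03 CPM in Wnt LOF LV, against 10.9, 11.2 and 8.42 CPM in control RV and 11.6, 10.2 and 9.45 CPM in control LV. The LV groups overlapped, and the LV log2 fold change was -0.24 (SE 0.15). Mcm7 was the 1 gene of 36 whose LV ranges did not overlap with Wnt LOF higher, against 3.95% of all genes; 0 were lower, against 3.95%. It had 8.54, 9.55 and 9.70 CPM in Wnt LOF LV, against 8.29, 7.49 and 7.41 CPM in control LV, a log2 fold change of 0.26 (SE 0.17). In the RV Mcm7 had 9.33, 6.20 and 10.2 CPM in Wnt LOF, against 9.37, 8.87 and 8.03 CPM in control, with overlap. The LV median changed sign with single libraries, being 0.29 without Wnt LOF LV 1, 0.22 without control LV 1, 0.14 without control LV 3 and -0.18 without Wnt LOF LV 2.

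**Figure D5:**
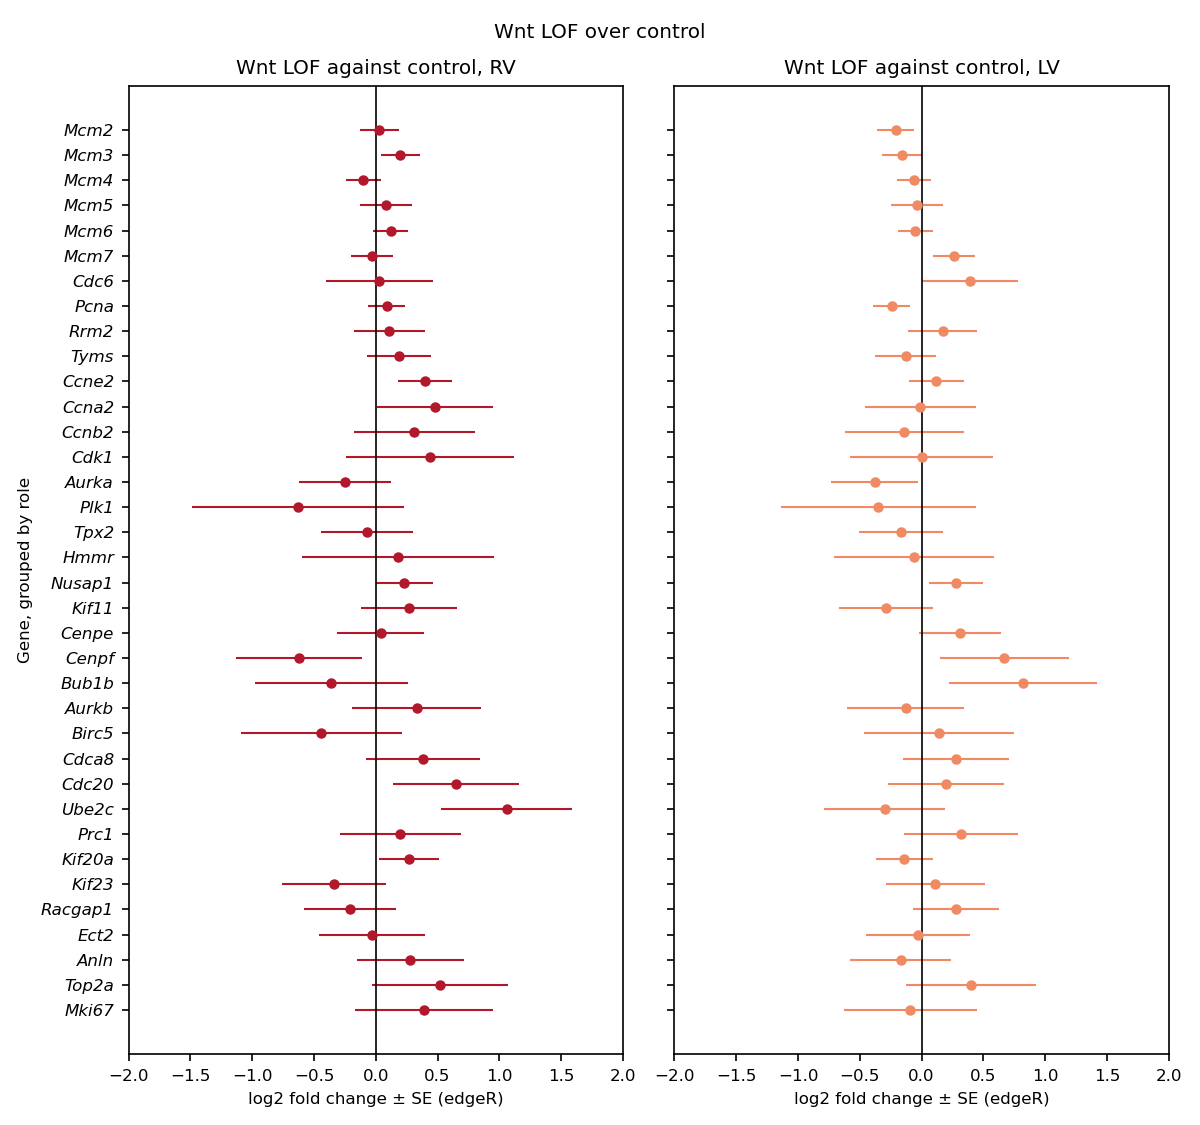
Points are log2 fold changes of Wnt LOF over control with their SE by edgeR for the 36 genes that passed the filter, in the RV (left panel) and the LV (right panel). In the RV 25 points lie above 0 and Ube2c lies highest at 1.06; in the LV 21 lie below 0 and Bub1b lies highest at 0.82.

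Whether the difference between ventricles itself differed between genotypes was tested by the interaction. Of the 36 genes 14 lay below 0, against 49.1% of all genes, with a median of 0.13, and -0.16 without Wnt LOF LV 1. None of the 36 genes was called by edgeR or DESeq2, and 0% of all genes were, with 0 of the 36 and 2.01% of all genes at an unadjusted p under 0.05. The largest interactions were those of Ube2c, a gene with few reads, at 1.36 (SE 0.72, unadjusted p = 0.0806), and Cenpf, at -1.29 (SE 0.73, unadjusted p = 0.112). The Cenpf differences between ventricles in the 2 genotypes are therefore not shown to differ, and without Wnt LOF LV 1 the Cenpf interaction was -0.63.

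Other genes of the cycle were described from lists of non-members. In control RV against control LV, 26 of 29 other mitosis genes lay below 0, against 49% of all genes, with a median of -0.31. Dlgap5 (-1.27, SE 0.52) and Melk (-1.60, SE 0.72) had the smallest unadjusted p, and both rest on few reads. In control RV Dlgap5 had 0.223, 0.265 and 0.392 CPM and Melk 0.335, 0.0662 and 0.261 CPM, where 1 read is 0.0558 to 0.0662 CPM. Of 36 other replication genes 15 lay below 0, against the same 49%, with a median of 0.04. None of these genes, and none of 9 G1 regulators, 6 cyclin-dependent kinase inhibitors and 19 RB, E2F and DREAM factors, was called in any of the 5 comparisons. Cdk6, a G1 kinase, was at 0.44 (SE 0.11, unadjusted p = 0.00112 by edgeR) in control RV against control LV. In that comparison 1 of the 9 G1 regulators was higher and 1 lower at an unadjusted p under 0.05, against 4.89% of all genes. Ccnd2 of that list went the other way without overlap, at 90.6, 74.1 and 77.2 CPM in control RV, against 128, 101 and 105 CPM in control LV. Cdkn1c, the kinase inhibitor p57, was at 0.34 (SE 0.12, unadjusted p = 0.0159) in Wnt LOF RV against Wnt LOF LV.

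The authors' deposited table for each ventricle was read for 30 of the 38 genes. In the authors' deposited table for the RV, 7 of 30 had a log2 fold change below 0, and the smallest adjusted p was 0.918. In the authors' deposited table for the LV, 21 of 30 were below 0, and the smallest adjusted p was 0.841. The share of all genes below 0 was not computed for the authors' values, so these counts have no background beside them. Ccne2 was at 0.54 (unadjusted p = 0.0405) in the authors' deposited table for the RV, and Cenpf was at 0.70 (unadjusted p = 0.0679) in the authors' deposited table for the LV. Both turned on single libraries in the edgeR fits made here. Ccne2 in the RV ran from 0.05 without Wnt LOF RV 3 to 0.57 without Wnt LOF RV 1. Cenpf in the LV ran from 0.01 without Wnt LOF LV 1 to 1.06 without Wnt LOF LV 3.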

How the data were processed

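The authors deposited raw counts per Ensembl gene, and featureCounts, Subread and edgeR are named in the submitters' processing notes. Aligner, build and strand setting: not given in the sources used here. Per the file headers, 1 table per ventricle from the authors gives each gene's log2 fold change, its p-value and its adjusted p-value. Of 41192 rows, 598 repeated a gene with equal counts and were left out. The members and gene lists were chosen with earlier results of these data known.

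Counts were fitted in edgeR 4.0.16 (R 4.3.3) by the robust quasi-likelihood test, with filterByExpr by group, TMM scaling (factors 0.961 to 1.04) and 1 mean per group over 12 libraries. Contrasts were Wnt LOF against control in each ventricle, RV against LV in each genotype, and their interaction. Benjamini-Hochberg adjustment covered all 15494 genes, with a threshold of 0.05. An SE is the log2 fold change over the square root of F. The computation was tested on simulated data. Alternatives were DESeq2 1.42.0, other scalings and filters, fits of only the compared groups, replicate blocks and omission of libraries; leaving out control numbers within the block was added after seeing the data.

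Equal numbers were taken to pair RV with LV, since deviations from group means correlated at 0.209 to 0.582 in Wnt LOF and 0.283 to 0.5 in control hearts; between genotypes they did not in every pair (0.0729 to 0.288 in the RV, -0.0863 to 0.237 in the LV). Between RV and LV libraries of unlike number, the correlation reached 0.177 in Wnt LOF and 0.0538 in control hearts. The libraries numbered 3 also share the Ddx3y signal in every group, and they stood apart in other genes too. Pttg1, one of the other mitosis genes, was at 54.1 to 69 CPM in them, against 2.22 to 3.91 CPM in the other libraries. Hba-a2 was at 12 to 30.3 CPM in them, against 0 to 0.329 CPM. For these libraries number, sex and whatever else they share cannot be told apart. No label ties a number to 1 heart. Exon lengths and overlaps came from GENCODE. Named copies exist for Pcna, Tyms, Ccnb1 and Ccnb2, so their counts are uncertain. Values in all libraries are given for genes called in any fit, with the smallest p in a comparison, with the highest or lowest mean, or with ranges that do not overlap, besides Mki67 and Top2a; other genes are given by range and count. Limits at 0 reads cover counting error only.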

Additional observations from a re-analysis of the deposited data

How the results depend on the processing

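No gene of the list was called in 24 settings for each genotype comparison, in 22 for the interaction, or in 23 edgeR settings for Wnt LOF RV against LV, where DESeq2 gave an adjusted p to 3 of the 36. For control RV against LV, 23 of 27 settings gave 0 calls, DESeq2 among them; the replicate block with control libraries alone gave 3, and without control number 1, 2 or 3, with 1 residual degree of freedom, it gave 2, 2 and 1. The replicate block changed no other call. Leaving out single libraries, the medians ran from 0.05 to 0.26 (Wnt LOF against control, RV), -0.18 to 0.29 (LV), -0.53 to 0.00 (RV against LV, Wnt LOF), -0.44 to -0.22 (RV against LV, control) and -0.16 to 0.34 (interaction), each with 0 calls. Without both Wnt LOF libraries numbered 1, Mki67 turned to 0.32 in Wnt LOF LV against control LV. Cenpf in Wnt LOF RV against LV turned to 0.17 with either replicate block, and to 0.81 without both Wnt LOF libraries numbered 1, with or without control LV 2. Leaving out single libraries it ran from -0.41 to 0.64, Top2a from -0.89 to 0.08 and Mki67 from -0.71 to 0.24 there, and in the LV between genotypes Top2a ran from -0.12 to 0.84 and Mki67 from -0.64 to 0.31. The cause was not tested. Depth limits the low genes: for Aurka counting error alone gives an SD of 0.4 on the log2 scale, and its SD over the libraries was 0.42.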
